A study of Mus musculus with 6 samples.

Results

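The integrin and laminin genes were followed in RNA-Seq of mouse liver. Members were the protein-coding genes whose symbol starts with Itga, Itgb, Lama, Lamb or Lamc followed by a chain number or letter, and the rule found 41 of the 56305 genes of the table. These were 18 integrin alpha chains, 9 integrin beta chains, 11 laminin chains and 3 genes that carry an integrin's name in their symbol but encode proteins that bind integrins (Itgb1bp1, Itgb1bp2 and Itgb3bp). Livers came from 3 WT and 3 Vps15LKO male mice of 5 weeks, fed chow ad libitum and with livers collected at ZT6, with 1 library per liver. Vps15LKO mice are AlbCre+;Vps15 f/f: Cre under the albumin promoter, which is active in hepatocytes and their precursors, deletes Vps15, the regulatory subunit of class 3 PI3K. The labels give the control mice as WT and name no allele of theirs, so whether they carry floxed Vps15 without Cre is not stated in the labels. The RNA is that of whole liver, in which fewer cells of a type and less RNA per cell cannot be told apart.

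An integrin is a receptor made of 1 alpha and 1 beta chain that ties the cytoskeleton to the matrix or to another cell, and the pair of chains sets what it binds. A laminin is a cross-shaped trimer of 1 alpha, 1 beta and 1 gamma chain that assembles into the basement membrane, the sheet on which epithelia, vessels and nerves rest. In healthy liver the sinusoids have little laminin, while bile ducts and portal vessels are surrounded by it, and bile duct cells carry the laminin-binding integrins that hepatocytes mostly lack.

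Counts are read counts divided by 1 DESeq2 size factor per library, called normalized counts here. The libraries held 16137093 to 18110223 reads on genes. Size factors were 0.742 to 0.801 in WT and 1.23 to 1.41 in Vps15LKO livers, so an equal share of reads gives a lower normalized count in Vps15LKO than in WT. Scaling the libraries to equal totals instead moved the log2 fold change of the median gene up by 0.72, and results that turn on this are marked. Pik3r4, the gene of Vps15, had 508, 573 and 459.7 normalized counts in WT and 341, 362 and 355 in Vps15LKO livers (log2 fold change −0.54, SE 0.11, adjusted p = 0.00207, limma with Benjamini-Hochberg adjustment), and with equal totals its change was 0.19 and not called. These counts cover the whole gene and not the deleted exons alone. Hepatocyte markers were abundant in all 6 livers, their normalized counts summing to 3105500 to 3521700 in WT and 848980 to 1278500 in Vps15LKO, and none of the 12 was at 0.

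Of the 41 members, 35 reached 20 normalized counts in 3 or more livers and were tested, among 15430 genes in all. A call needed an adjusted p below 0.05 together with a change of 1.2-fold or more. In Vps15LKO liver 29 members were called higher, against 33.5% of all tested genes, and 4 were called lower, against 33.0% of all tested genes. Itga1 and Lamb3 were not called. The median log2 fold change was 1.81 over the 35 tested members and −0.02 over all tested genes. With equal totals 31 members were called higher, against 66.7% of all tested genes, and 1 lower, against 11.1%. On whole reads edgeR called 29 members higher and 4 lower, against 34.9% and 31.3% of all tested genes. The values of the genotypes did not overlap for 33 members that were higher in Vps15LKO and 4 that were lower, counted over all 41 with no filter, where 36.4% and 36.8% of tested genes had such values. Of the tested members, 5 reached 20 normalized counts in no WT liver (among them Itga2, Itgae, Itgb4 and Itgb8) and passed the filter through the Vps15LKO livers. Among the 28 members at 20 or more in all livers, which leaves out these 5, Itgax and Lama3, 23 were called higher and 3 lower, against 27.9% and 36.2% of the 13101 genes at that level. After quantile normalization 26 members were called higher and 5 lower, against 30.4% and 37.6% of all tested genes.

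**Figure D1:**
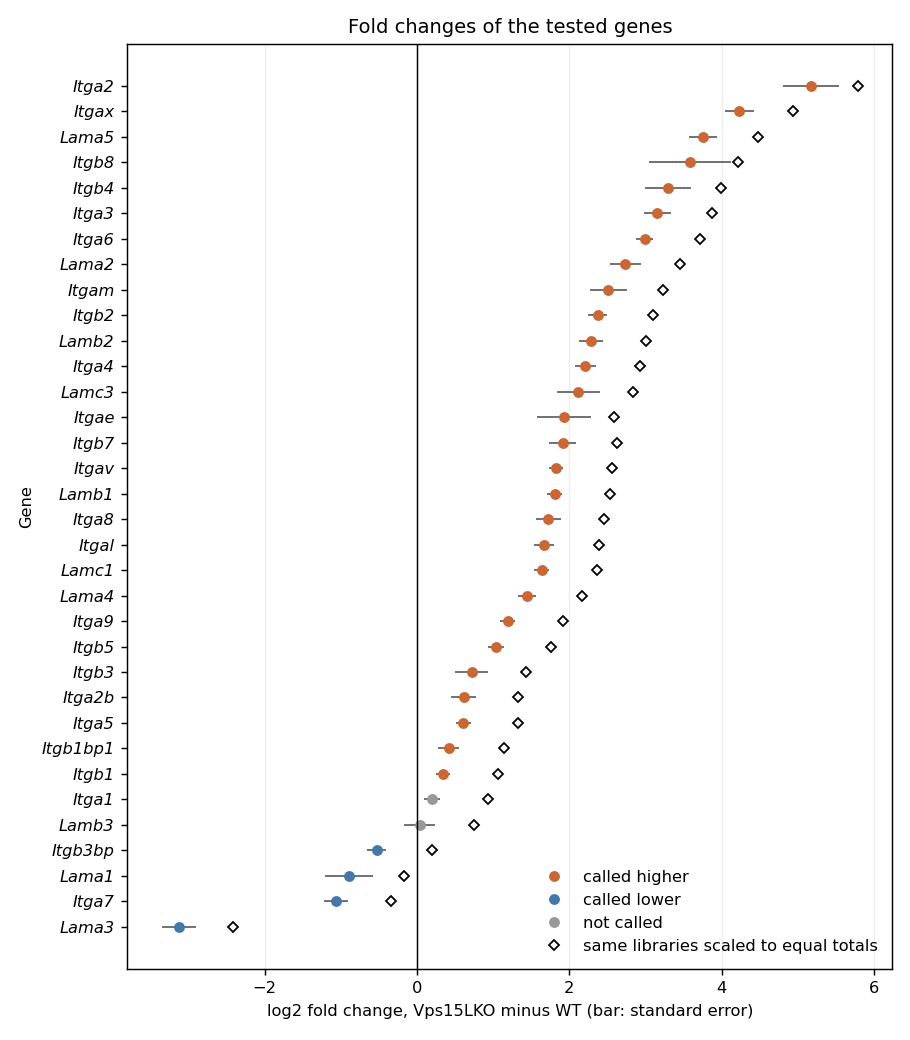
Log2 fold change (Vps15LKO minus WT, horizontal axis) of tested members (vertical axis), as filled points with their standard error from limma, coloured by call; open diamonds show the change when the libraries are scaled to equal totals. Lama3 lies farthest to the left at −3.12 and Itga2 farthest to the right at 5.17, and the diamonds lie to the right of the filled points.

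The upstream sequence of Lama5 and of Itga3 is shown first, because these are the laminin chain and the integrin chain with the largest gain in share of their class, as described below. Each run is the 250 bases before a RefSeq start of the gene (GRCm38.p6), given 5′ to 3′ on the strand of the gene, and capitals mark each GC box, the letters GGGCGG or their reverse complement, which is a binding motif of Sp1-type factors. The window of Lama5 is chr2:180225860-180226109 on the minus strand and that of Itga3 is chr11:95076715-95076964 on the minus strand.
Lama5: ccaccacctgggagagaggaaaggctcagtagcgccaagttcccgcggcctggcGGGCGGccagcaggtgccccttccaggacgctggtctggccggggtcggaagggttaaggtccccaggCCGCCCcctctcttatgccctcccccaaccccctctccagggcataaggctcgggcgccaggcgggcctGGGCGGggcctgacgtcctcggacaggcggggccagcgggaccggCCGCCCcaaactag
Itga3: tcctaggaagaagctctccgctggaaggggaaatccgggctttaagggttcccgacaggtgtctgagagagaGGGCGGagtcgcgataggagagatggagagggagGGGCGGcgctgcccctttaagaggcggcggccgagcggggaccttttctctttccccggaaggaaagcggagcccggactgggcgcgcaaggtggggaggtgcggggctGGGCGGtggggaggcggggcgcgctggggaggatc
The Lama5 window holds 4 GC boxes and is 72.4% G or C, and the Itga3 window holds 3 and is 67.6% G or C. A second RefSeq start window of Itga3, not printed, holds 1 GC box. RefSeq start windows were at hand for 26 of the 41 members, 29 windows in all. A GC box was in 31.0% of the 29 windows and in 32.7% of all 32851 windows searched. It was found for Itga3, Itga4, Itga5, Itgam, Itgb1, Itgb5, Lama5 and Lamb1. The E-box CACGTG, the motif of Bmal1–Clock, was in 0 of the 29 windows and in 6.02% of all windows. The AP-1 motif TGANTCA was in the window of Itgax alone, 3.45% of the members' windows, and in 6.75% of all. All 3 motifs were searched on both strands, and no window of a member held more than 1 of them. A match is a description of the letters and says nothing of binding.

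The laminin alpha chains, the long arm that cells bind, moved in opposite directions. Lama5, the alpha chain of the laminins most widespread in adult epithelial and vascular basement membranes, lies on chromosome 2 from 180176373 to 180225859 of GRCm38. Its normalized counts were 76.9, 106 and 82.2 in WT and 1243, 933 and 1478 in Vps15LKO livers. Every Vps15LKO liver was far above every WT liver, a ratio of means of 13.8 (log2 fold change 3.76, SE 0.19, adjusted p = 1.43e-06, limma with Benjamini-Hochberg adjustment). Lama3, an alpha chain of skin and other stratified epithelia, had 147, 145 and 214 normalized counts in WT and 15.3, 17.8 and 21.9 in Vps15LKO livers. It was the chain that fell most: the lowest WT liver lay well above the highest Vps15LKO liver, and the WT mean was 9.20 times that of Vps15LKO (log2 fold change −3.12, SE 0.22, adjusted p = 8.52e-06, limma with Benjamini-Hochberg adjustment). With equal totals it still fell, by 2.42 on the log2 scale (4.25 after quantile normalization), and it was the only member called lower there.

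Lama2, the alpha chain of muscle and mesenchymal basement membranes, had 38.5, 54.96 and 60.7 normalized counts in WT and 302, 321 and 412 in Vps15LKO livers (log2 fold change 2.74, SE 0.20). Lama4, the chain of vessel walls, had 101, 111 and 97.1 and 258, 297 and 293 (log2 fold change 1.45, SE 0.12). The genotypes did not overlap for either, and both were called. Lama1, the alpha chain of early embryonic laminin, had 122, 145 and 169 normalized counts in WT and 95.5, 107 and 44.6 in Vps15LKO livers. Vps15LKO replicate 3 was lowest by far, and the other 2 Vps15LKO livers were close to WT replicate 1. Its call was the weakest among the laminins (log2 fold change −0.89, SE 0.31, adjusted p = 0.031, limma with Benjamini-Hochberg adjustment). It was lost with equal totals, where the change was −0.17, without a mean-variance trend, and without WT replicate 2 or WT replicate 3, and the log2 fold change with each library left out in turn ran from −1.13 to −0.51.

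Among the beta and gamma chains, which form the short arms and the coiled coil, Lamb1, Lamb2, Lamc1 and Lamc3 rose and Lamb3 was not called. Lamb1, the most widely used beta chain, had 174, 186 and 167 normalized counts in WT and 598, 646 and 609 in Vps15LKO livers. Lamb2, which takes its place in laminins of vessels, glomeruli and synapses, had 191, 191 and 154 in WT and 840.0, 739.8 and 1062 in Vps15LKO livers. Both rose with no overlap, Lamb1 by 1.81 (SE 0.10) and Lamb2 by 2.29 (SE 0.15) on the log2 scale. Lamb3, a beta chain that assembles with Lama3, had 50.4, 78.7 and 72.8 normalized counts in WT and 61.1, 68.9 and 73.6 in Vps15LKO livers. The genotypes overlapped and Lamb3 was not called (log2 fold change 0.03, SE 0.21, adjusted p = 0.898, limma with Benjamini-Hochberg adjustment), while it was called higher with equal totals (0.75) and lower after quantile normalization (−0.53).

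Lamc1, the gamma chain of most laminins, had 463, 576 and 558 normalized counts in WT and 1603, 1685 and 1661 in Vps15LKO livers, a rise of 1.64 on the log2 scale (SE 0.10). Lamc3, a minor gamma chain, had 39.8, 43.7 and 20.2 in WT and 159.6, 127 and 153 in Vps15LKO livers, with no overlap (log2 fold change 2.12, SE 0.28).

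**Figure D2:**
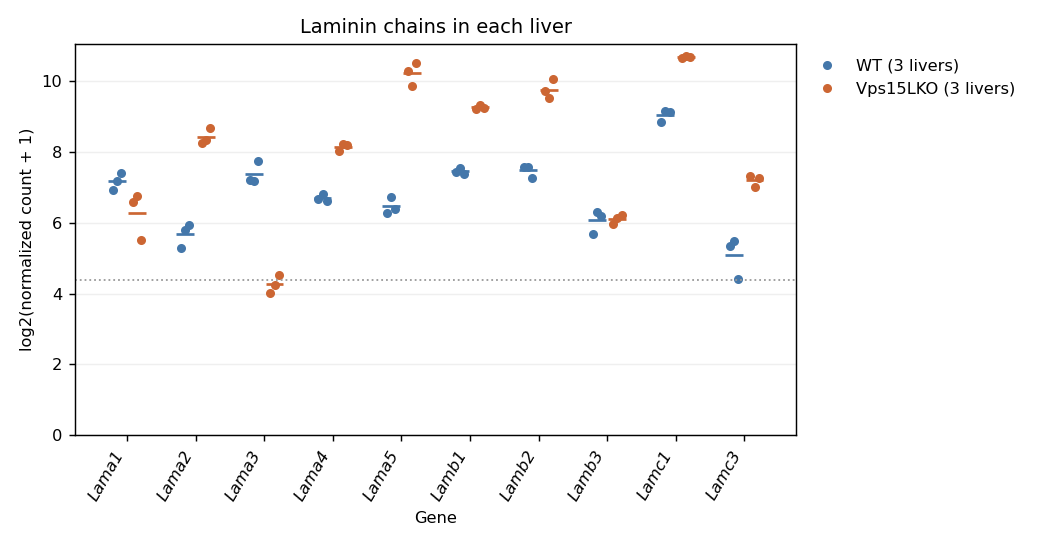
Log2(normalized count + 1) (vertical axis) of laminin chains (horizontal axis), each point 1 liver and each short bar the mean of 3 livers of 1 genotype; the dotted line is the 20 normalized counts of the filter. Lama5 and Lama2 stand apart upward in Vps15LKO, Lama3 stands apart downward, and the points of Lamb3 overlap.

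Levels of different chains were compared as shares, the reads per kb of exon of a chain over the sum of its class in the same liver, so that gene length and library scaling drop out. In each share below n = 3 livers and the error is the SD. The alpha chain with the largest share changed from Lama3 and Lama1 to Lama5. Lama5 made up 15.6% ± 2.85 of alpha chain reads in WT and 65.6% ± 5.80 in Vps15LKO livers. Lama3 went from 31.2% ± 4.32 to 1.06% ± 0.158 and Lama1 from 29.8% ± 1.05 to 5.53% ± 2.79. Lama2 went from 6.22% ± 0.727 to 13.1% ± 1.37. Lama4, whose counts rose, held 17.2% ± 2.58 in WT and 14.7% ± 2.61 in Vps15LKO, with overlapping livers. The ratio of Lama5 to Lama3 per kb was 0.493, 0.691 and 0.362 in WT and 76.8, 49.4 and 63.6 in Vps15LKO, below 1 in every WT liver and far above it in every Vps15LKO liver.

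Among beta chains Lamb2 led in both genotypes, with 51.2% ± 4.03 in WT and 66.3% ± 4.49 in Vps15LKO, and Lamb3 went from 17.8% ± 3.81 to 4.74% ± 0.467. The share of Lamb1 overlapped between genotypes, with 30.98% ± 0.749 and 28.97% ± 4.09. In all, 4 of the 5 alpha chain shares and 2 of the 3 beta chain shares did not overlap between genotypes. The exact two-sided permutation test gave p = 0.1 for each of these, the smallest that 3 livers against 3 can give, and an adjusted p = 0.131 over the 38 integrin and laminin chains. No share could therefore pass 0.05 in this design. The shares concern transcripts, and the trimers were not measured.

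**Figure D3:**
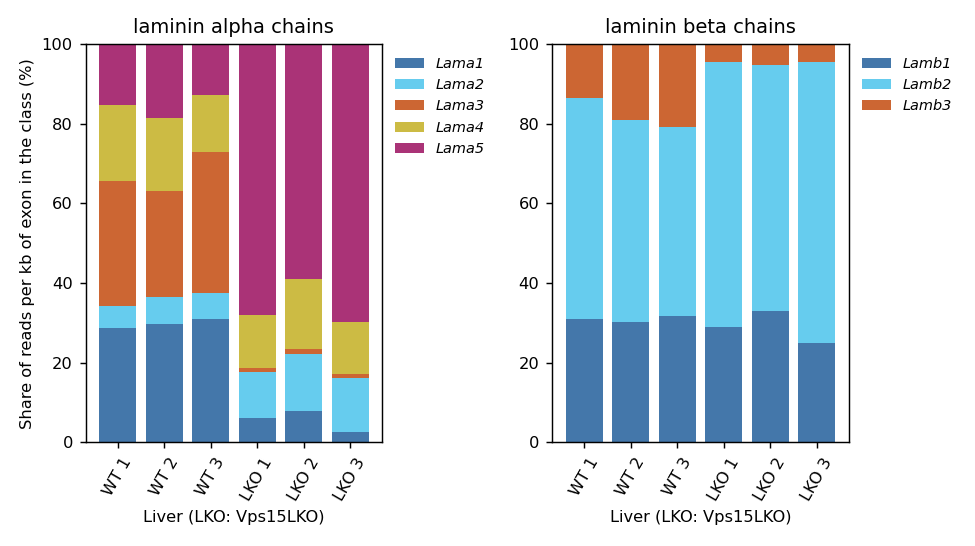
Share of reads per kb of exon within laminin alpha and beta chains (vertical axis, in %) in each of the 6 livers (horizontal axis), stacked by chain. The Lama5 block takes between 12.8% and 18.5% of the alpha chains in the WT livers and between 59.0% and 69.8% in the Vps15LKO livers, and the Lama3 block is almost gone in the latter.

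Among the 3 integrin alpha chains that bind laminin, 2 rose and 1 fell, the fall not being called with equal totals. Itga3, which with Itgb1 forms a receptor for laminins with Lama5 or Lama3 and lies on chromosome 11 from 95044474 to 95076801 of GRCm38, had 261, 231 and 173 normalized counts in WT and 2049.6, 1604 and 2272 in Vps15LKO livers. The lowest Vps15LKO liver was several times the highest WT liver (log2 fold change 3.16, SE 0.18, adjusted p = 2.49e-06, limma with Benjamini-Hochberg adjustment). Itga6, the laminin receptor chain that pairs with Itgb1 or Itgb4, had 58.3, 59.96 and 63.4 in WT and 508, 462 and 499 in Vps15LKO livers, a ratio of means of 8.08 with little spread within a genotype. Itgb4, its partner in hemidesmosomes, had 18.6, 17.5 and 10.8 in WT and 139.7, 119.9 and 236 in Vps15LKO livers, and Vps15LKO replicate 3 was highest. Itga6 was called at 2.99 (SE 0.11). The change of Itgb4 was 3.30 (SE 0.31), and 2.64 after quantile normalization. No WT liver reached 20 for Itgb4, so the filter fixed the direction of its call. Itga7, the laminin receptor chain of muscle, had 186, 196 and 151 in WT and 74.8, 94.8 and 82.8 in Vps15LKO livers, the opposite direction with no overlap (log2 fold change −1.07, SE 0.16, adjusted p = 0.000375, limma with Benjamini-Hochberg adjustment). With equal totals its change was −0.35 and not called.

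Of the 4 collagen-binding alpha chains, Itga1 and Itga2 passed the filter. Itga2, a collagen receptor chain of epithelia and platelets, had 2.65, 4.996 and 1.35 normalized counts in WT, or 2, 4 and 1 reads, and 133, 111 and 161 in Vps15LKO livers. It went from close to nothing to an easily counted level, with a ratio of summed reads over size factors of 44.6 (95% interval for counting error 21.5 to 112). Its fitted log2 fold change of 5.17 depends on the pseudocount and ran from 3.47 to 5.79 over the alternatives. Itga1, the collagen receptor chain of stellate and endothelial cells and other mesenchymal cells, had 669.6, 796 and 834 in WT and 864, 907 and 863 in Vps15LKO livers. The values did not overlap, yet the difference was not called (log2 fold change 0.20, SE 0.10, adjusted p = 0.116, limma with Benjamini-Hochberg adjustment), and it was called higher with equal totals (0.93) and after quantile normalization. Itga10 had 7.96, 9.99 and 10.8 in WT and 4.58, 17.02 and 15.6 in Vps15LKO livers, with overlap. These values are uncertain, since 33.5% of its exon length is shared on the same strand with Gm42957. Itga11, a chain of fibroblasts, had 2, 5 and 4 reads in WT and 16, 20 and 43 in Vps15LKO livers, too few for the filter.

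Markers of some cell types known for these chains changed as well, while the sums of others overlapped between genotypes. The 13 cholangiocyte and progenitor markers had normalized counts summing to 877 to 962 in WT and 3548 to 5278 in Vps15LKO livers. Of these, 4 were at 20 or more in every liver and were called higher, against 27.9% of all genes at that level. Of the 12 tested, 3 had no WT liver at 20 and could pass the filter only by being high in Vps15LKO. All 13 stellate cell and fibroblast markers rose, where 33.5% of all tested genes did. Their sums were 7521 to 8073 in WT and 31740 to 37353 in Vps15LKO livers. Among 12 hepatocyte markers 11 fell, where 33.0% of all tested genes did, and 1 was not called. Of 12 endothelial markers 6 rose and 5 fell, against 33.5% and 33.0% of all tested genes. Their sums were 10791 to 11924 in WT and 10429 to 12094 in Vps15LKO. With equal totals 9 rose and none fell, where 66.7% and 11.1% of all tested genes did. The endothelial falls numbered 2 without Vps15LKO replicate 1 and 3 without Vps15LKO replicate 3 or any single WT replicate. The 4 mesothelial markers had 2 tested and none called, with sums of 147 to 172 in WT and 118 to 189.6 in Vps15LKO livers. The part of these cell types in the laminin and integrin values was not tested.

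**Figure D4:**
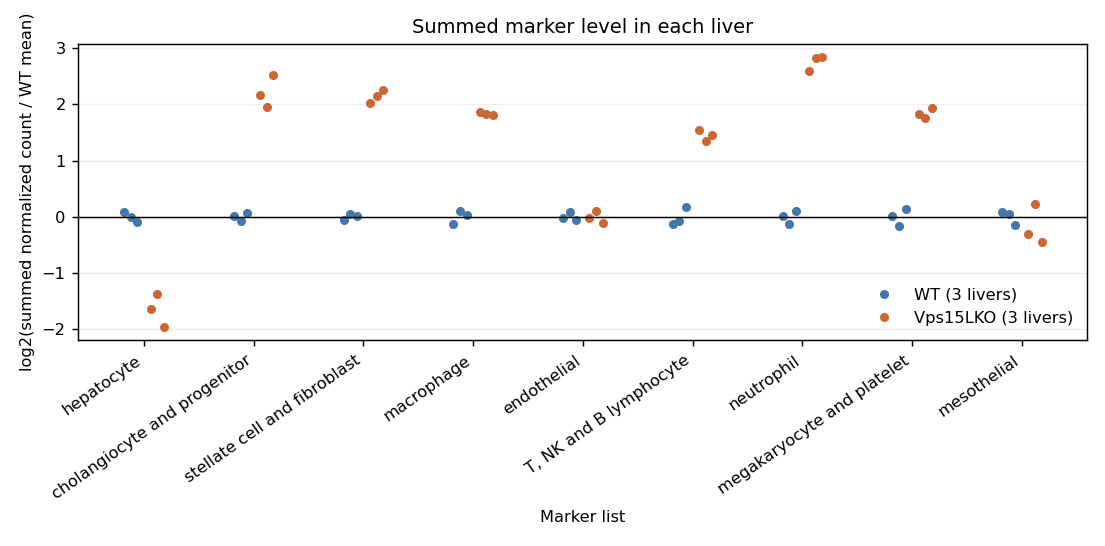
Log2 of the summed normalized count of each marker list over its mean in WT (vertical axis), with 1 point per liver and the lists along the horizontal axis. The hepatocyte sums lie lower in Vps15LKO, the endothelial and mesothelial sums overlap, and the other lists lie higher in all 3 Vps15LKO livers.

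The 4 alpha chains that recognise the RGD motif of fibronectin, vitronectin and the latent form of TGF-β all rose. Itgav, the common alpha chain of the vitronectin receptors, had 394, 415 and 433 normalized counts in WT and 1582, 1410.0 and 1430.1 in Vps15LKO livers (log2 fold change 1.83, SE 0.09, adjusted p = 1.33e-06, limma with Benjamini-Hochberg adjustment). Itga8, a chain of mesenchymal cells such as stellate cells, had 145, 164 and 217 in WT and 510.1, 609 and 607 in Vps15LKO livers (log2 fold change 1.73, SE 0.16). Itga5, the fibronectin receptor chain, had 663, 623 and 699.6 and 932, 1002 and 1094, a smaller rise of 0.61 (SE 0.10). None of the 3 overlapped between genotypes. Itga2b, the alpha chain of the platelet fibrinogen receptor, had 43.8, 44.97 and 47.2 in WT and 66.4, 74.6 and 68.6 in Vps15LKO livers (log2 fold change 0.61, SE 0.16) and lost its call after quantile normalization, where the change was 0.03.

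Among Itgb3, Itgb5, Itgb6 and Itgb8, beta chains that pair with Itgav, Itgb5 and then Itgb3 led in TPM (reads per kb of exon, scaled to the same sum in each library) in all 6 livers. Itgb5, the vitronectin receptor chain, had 1689, 1736 and 1439.7 normalized counts in WT and 3235, 3402 and 3321 in Vps15LKO livers (log2 fold change 1.04, SE 0.10, adjusted p = 3.68e-05, limma with Benjamini-Hochberg adjustment). Itgb3, the chain shared by the vitronectin and platelet fibrinogen receptors, had 55.7, 86.2 and 83.6 in WT and 113, 149.9 and 107 in Vps15LKO livers. These lay closer together, and its call (log2 fold change 0.72, SE 0.22) was lost without Vps15LKO replicate 2, where the change was 0.52, and after quantile normalization (0.25). Itgb8, a chain that binds latent TGF-β, had 1.33, 8.74 and 6.74 in WT and 60.3, 51.1 and 93.4 in Vps15LKO livers, near the floor in WT and well above it in every Vps15LKO liver (log2 fold change 3.58, SE 0.54). Without WT replicate 1, which held 1 read, its change was 2.95, and after quantile normalization 2.39, called in both. No WT liver reached 20 for Itgb8, so the filter fixed the direction of these calls. Itgb6, an epithelial chain that also binds latent TGF-β, was under the filter with 2 reads over the WT livers and 65 over the Vps15LKO livers, a ratio of 18.9 after scaling (95% interval for counting error 5.02 to 159).

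Itgb1, which pairs with more alpha chains than any other beta chain, was the most abundant member per length, with 85.5 ± 6.97 TPM in WT and 184 ± 10.8 TPM in Vps15LKO livers (mean ± SD, n = 3). Its normalized counts were 3367, 3525 and 3625 in WT and 4334, 4503 and 4443 in Vps15LKO livers. The shift was even across livers (log2 fold change 0.34, SE 0.09, adjusted p = 0.00983, limma with Benjamini-Hochberg adjustment) and was not called after upper-quartile scaling, where it was 0.24. Its size turned on the scaling, being 1.06 with equal totals and 0.98 after quantile normalization, both called. The alpha chains that pair with Itgb1 moved by very different amounts, from −1.07 for Itga7 to 5.17 for Itga2 on the log2 scale.

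Itga4 and Itga9, which bind VCAM1, osteopontin and fibronectin outside the RGD motif, both rose. Itga4, carried by lymphocytes and monocytes, had 87.5, 99.9 and 98.4 normalized counts in WT and 521, 425 and 395 in Vps15LKO livers (log2 fold change 2.21, SE 0.14). Itga9 had 489, 607 and 590.4 and 1308, 1293 and 1233 (log2 fold change 1.19, SE 0.10). Neither overlapped between genotypes. Itga4 shares 1124 bases of exon with Cerkl on the other strand, so its counts may hold reads of Cerkl if strand was not used.

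All 6 tested leukocyte chains rose: Itgal, Itgam, Itgax, Itgae, Itgb2 and Itgb7, of which Itgae had no WT liver at 20. Itgb2, the common beta chain of the leukocyte adhesion receptors, had 159, 211 and 163 normalized counts in WT and 957, 919.7 and 882 in Vps15LKO livers (log2 fold change 2.38, SE 0.13, adjusted p = 1.89e-06, limma with Benjamini-Hochberg adjustment). Its alpha partners rose by different amounts, though these were not tested against each other. Itgal, the LFA-1 chain, had 302, 336 and 315 in WT and 1120.3, 1112 and 834 in Vps15LKO livers (log2 fold change 1.67, SE 0.13). Itgam, the CD11b chain, had 21.2, 41.2 and 35.05 and 166, 196 and 190.3 (log2 fold change 2.51, SE 0.24). Itgax, the CD11c chain of dendritic cells and of some macrophages, had 22.5, 18.7 and 14.8 and 347, 331 and 418 (log2 fold change 4.23, SE 0.19). Itgax rose most of the tested leukocyte chains, from about the filter in WT to a level far above it in each Vps15LKO liver. The Itgam values are uncertain, since 68.7% of its exon length is shared on the same strand with Gm49368 and the treatment of such reads in the counting is not stated in the sources used here.

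Itgb7, the beta chain of gut-homing lymphocytes, had 37.1, 28.7 and 32.4 normalized counts in WT and 118, 118 and 142 in Vps15LKO livers (log2 fold change 1.91, SE 0.18). Itgae, its partner CD103 on T cells within epithelia, had 3.98, 8.74 and 5.39 and 25.2, 22.7 and 26.9 (log2 fold change 1.93, SE 0.35), and lost its call after quantile normalization (0.45). Itgad had 2 reads over the WT livers and 66 over the Vps15LKO livers, a ratio of 19.2 after scaling (95% interval for counting error 5.10 to 161), and was under the filter. Itgb2l, a beta chain close in sequence to Itgb2, had 6.63, 14.99 and 26.96 and 12.2, 10.5 and 18.4, with overlap, and was not tested.

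Markers of blood cells moved with these chains. Of 12 macrophage markers 11 were at 20 or more in every liver, of which 9 rose and 2 were not called. Of all genes at that level 27.9% rose. The normalized counts of the 12 summed to 8648 to 10135 in WT and 33451 to 34634 in Vps15LKO livers. The 13 T, NK and B lymphocyte markers summed to 167 to 206 in WT and 464 to 529 in Vps15LKO livers, and 5 of the 10 tested had no WT liver at 20. After quantile normalization 4 of the 10 rose and 2 fell, where 30.4% and 37.6% of all tested genes did. The 10 neutrophil markers summed to 76.2 to 89.0 in WT and 502 to 592 in Vps15LKO livers, and Ly6g and Mpo were at 0 in WT. The 8 megakaryocyte and platelet markers summed to 37.5 to 45.8 and 141 to 161, and Gp6 was at 0 in WT. Of these lists 4 of the 5 tested neutrophil markers and both tested platelet markers had no WT liver at 20, so that their calls were fixed by the filter and are not counted. The part of these cells in the rise of the leukocyte and platelet chains was not tested.

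**Figure D5:**
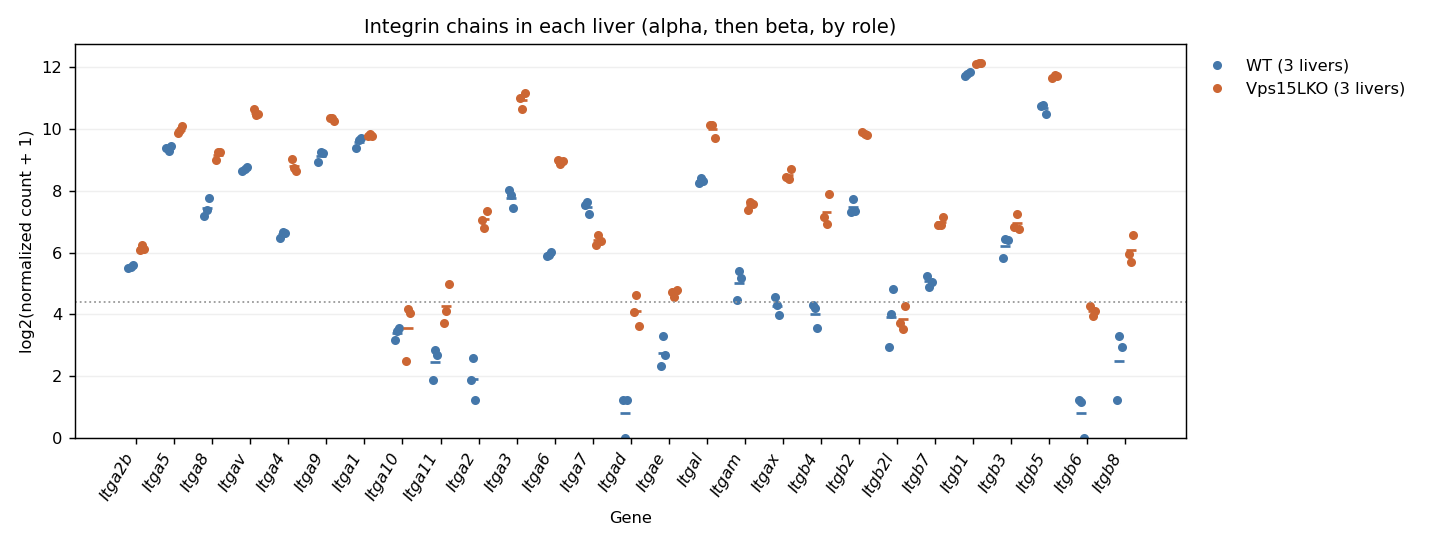
Log2(normalized count + 1) (vertical axis) of the integrin chains (horizontal axis), each point 1 liver and each short bar the mean of 3 livers of 1 genotype; the dotted line is the 20 normalized counts of the filter. Itgb1 is the highest chain in both genotypes, Itga2, Itgax, Itgb4 and Itgb8 rise from around or under the line, and Itga7 falls.

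Within the integrin chains the make-up changed as well. Itgb1 held 61.2% ± 2.72 of beta chain reads per kb in WT and 44.8% ± 0.131 in Vps15LKO livers (mean ± SD, n = 3). Itgb5 went from 32.5% ± 2.75 to 38.6% ± 0.362 and Itgb2 from 4.14% ± 0.542 to 12.4% ± 0.664. These 3 chains together make up nearly all beta chain reads. Among alpha chains Itga5 led in WT with 29.4% ± 1.91 and held 14.7% ± 1.08 in Vps15LKO livers, where Itga3 led with 24.8% ± 3.34 after 8.54% ± 1.99 in WT. Per kb, Itga3 was 0.340, 0.320 and 0.213 times Itga5 in the WT livers and 1.90, 1.38 and 1.79 times in the Vps15LKO livers, with Itga3 the lower of the pair in every WT liver and the higher in every Vps15LKO liver. Itga9 went from 15.97% ± 1.29 to 11.96% ± 0.763 and Itga1 from 9.01% ± 0.711 to 3.40% ± 0.233, and Itgal, Itga8, Itgae and Itga11 overlapped. Of 18 alpha chains 14 did not overlap, and of 9 beta chains 7 did not, each with p = 0.1 (exact two-sided permutation test) and an adjusted p = 0.131. Per length, the alpha chains summed to 41.3 to 47.9 TPM in WT and 212 to 259 TPM in Vps15LKO livers. The beta chains summed to 129.96 to 148 TPM in WT and 392 to 438 TPM in Vps15LKO livers, higher than the alpha chains in each liver. TPM sets the totals of the libraries equal, so these rises include the shift of 0.72 on the log2 scale named above.

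The 3 integrin-binding proteins showed no common direction, although the changes of both tested ones were above 0 with equal totals. Itgb1bp1, which encodes ICAP-1, a protein that binds the tail of Itgb1 and restrains its activation, had 223, 175 and 167 normalized counts in WT and 247, 249.6 and 251 in Vps15LKO livers. The Vps15LKO livers were nearly identical and WT replicate 1 was close to them. Its call was weak (log2 fold change 0.41, SE 0.13, adjusted p = 0.022, limma with Benjamini-Hochberg adjustment), was lost after upper-quartile scaling and quantile normalization, and was lost when any single library other than WT replicate 1 was left out, with changes from 0.33 to 0.42 in those cases and 0.54 without WT replicate 1. Itgb3bp, a protein also found at the centromere, had 721, 868 and 677 in WT and 502, 596 and 469 in Vps15LKO livers and was called lower (log2 fold change −0.53, SE 0.13, adjusted p = 0.00611, limma with Benjamini-Hochberg adjustment), while with equal totals the change was 0.19 and not called. It shares 8.59% of its exon length with Pgm1 on the other strand, and reads there cannot be assigned if strand was not used. Itgb1bp2, which encodes melusin of striated muscle, had 1, 0 and 0 reads in WT and 1, 0 and 1 in Vps15LKO livers, so no difference was detectable at this depth.

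Adaptors and kinases link integrins to actin inside the cell. Of 30 adhesion adaptors and kinases, all tested, 18 rose, 6 fell and 6 were not called. Of all tested genes 33.5% rose and 33.0% fell. The median log2 fold change was 0.50 beside 1.81 for the integrins and laminins. At 20 or more in every liver 16 of 28 rose and 6 fell, against 27.9% and 36.2% of genes at that level. With equal totals 25 rose and 1 fell, against 66.7% and 11.1% of all tested genes. The largest rises were those of Src, a kinase active at adhesions, from a mean of 65.9 to 745 normalized counts (log2 fold change 3.48), Fermt1, the kindlin of epithelia, from 8.84 to 79.9 (3.36), and Parvg, the parvin of blood cells, from 30.2 to 273 (3.17). Fermt1 had 2, 4 and 14 reads in the WT livers, and its change was 2.83 without WT replicate 1, 4.05 without WT replicate 3 and 2.28 after quantile normalization. No WT liver reached 20 normalized counts for Fermt1, so the filter fixed the direction of its call. Fermt2, the widespread kindlin, fell from 3570.2 to 1540.5 (−1.23), with equal totals too. Lims2 fell from 1846 to 1192 and Parva, the widespread parvin, from 2733 to 1826, and neither was called with equal totals. Of the 3 kindlins Fermt3 (2.10) rose and Fermt2 fell, beside Fermt1 with the limit just named. Of the 3 parvins Parvg and Parvb (1.35) rose and Parva fell. However, Parva changed by 0.14 with equal totals and −0.13 after quantile normalization, not called in either. Fermt3 and Parvb were named after their values were seen.

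Among the proteins that build the basement membrane with laminin, 16 of 18 were tested, and 13 rose and 3 fell. Of all tested genes 33.5% rose and 33.0% fell. The median log2 fold change of the list was 2.44. At 20 or more in every liver 10 of 13 rose and 3 fell, against 27.9% and 36.2% of genes at that level. Nid1, nidogen, which bridges laminin and type IV collagen, rose from a mean of 486 to 5513 normalized counts (log2 fold change 3.49). Smoc2 rose from 91.2 to 994 (3.42) and Frem1 from 12.97 to 106 (2.97). No WT liver reached 20 normalized counts for Frem1, so the filter fixed the direction of its call. Fras1, a partner of Frem1, fell from 158 to 56.3 (−1.47). Col18a1, the source of endostatin and the most abundant of the list in WT, fell from 26548 to 11021 (−1.28). Smoc1 fell from 2965 to 1946 (−0.60) and was not called with equal totals. There 13 genes of the list rose and 2 fell, against 66.7% and 11.1% of all tested genes. After quantile normalization 13 rose and 1 fell, against 30.4% and 37.6% of all tested genes. Col18a1 (−0.13) and Smoc1 (−0.12) were then not called, and the rise of Frem1 was 2.19.

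Of 19 other integrin ligands 18 were tested, 13 rose, 4 fell and 1 was not called. Of all tested genes 33.5% rose and 33.0% fell. At 20 or more in every liver 10 of 15 ligands rose and 4 fell, against 27.9% and 36.2% of genes at that level. Madcam1, the ligand of the alpha4-beta7 integrin, had no read in the WT livers and 38.2, 35.7 and 55.9 normalized counts in the Vps15LKO livers, at least 11.02-fold higher when set against a floor of 3 reads per WT library. It passed the filter through the Vps15LKO livers alone, so the filter fixed the direction of its call. Spp1, osteopontin, rose from a mean of 551 to 14767 (log2 fold change 4.69) and Thbs1, thrombospondin 1, from 25.9 to 540.2 (4.37). The 3 fibrinogen chains, which hepatocytes secrete, fell together: Fgg by 2.07, Fga by 1.91 and Fgb by 1.71 on the log2 scale. With equal totals 13 rose and 4 fell as well, against 66.7% and 11.1% of all tested genes. After quantile normalization 13 rose and 2 fell, against 30.4% and 37.6% of all tested genes. Fgg was then at −0.70, Fga at −0.52 and Fgb at −0.25, the last not called, and Spp1 at 5.34. Of the 9 other laminin receptors and hemidesmosome proteins 8 were tested, 5 rose, 1 fell and 2 were not called. Of all tested genes 33.5% rose and 33.0% fell. With equal totals 7 of the 8 rose and 1 fell, against 66.7% and 11.1% of all tested genes. Bcam, a receptor for the laminin alpha5 chain, rose from 137 to 638 (2.20), Cd151, a tetraspanin that partners laminin-binding integrins, from 1018 to 1879 (0.88), and Plec, plectin, from 2058 to 3236 (0.66). Sdc4, the syndecan of focal adhesions, fell from 6091 to 2176 (−1.48). The count of rises in this list was 3 without WT replicate 3, without Vps15LKO replicate 1 or without Vps15LKO replicate 3.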

How the data were processed

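Livers of 3 WT and 3 Vps15LKO mice were sequenced as poly(A)-selected RNA on DNBSEQ. Read filtering (SOAPnuke), mapping to GRCm38 (HISAT2), counting (featureCounts) and normalization (DESeq2) were done by the authors; versions and strand settings are not given in the sources used here. The values deposited by the authors are a normalized signal: each gene's read count over the library's size factor. All values (100% per library, tolerance 0.01 reads) were whole multiples of 1 read, so whole reads were recovered, 16137093 to 18110223 per library. Labels gave genotype and replicate. GENCODE M21 named 55141 of 56305 genes.

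Genes that reached 20 normalized counts in 3 or more livers (15430) were compared on log2(normalized count + 1) (which understates changes of low genes) with limma 3.58.1 (trend) in R 4.3.3 and Benjamini-Hochberg adjustment over all of them. edgeR 4.0.16 and DESeq2 1.42.0 on recovered reads, other scalings, filters, pseudocounts and thresholds, each library left out and a replicate block were alternatives. Scripts were tested on simulated data. TPM and shares used union exon length of M21 and Python 3.11.15 with scipy 1.17.1. Members, lists and tests were chosen with earlier results of these data known. Values by liver are given for members called with an absolute log2 fold change of 1 or more and a mean normalized count of 100 or more, and for all tested laminin and integrin beta chains. The other members are given for completeness. From each partner list the 3 largest called rises and falls are named. Counting intervals cover counting error only. Some genes counted among the members and lists are not reported here by name.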

Additional observations from a re-analysis of the deposited data

How the results depend on the processing

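Of 41 members, 29 were called higher and 4 lower in Vps15LKO. Members called lower numbered 1 with equal totals and 2 at a fold of at least 2, and the higher calls ranged from 23 (at least 20 in every liver) to 32 (no filter). With each library left out in turn, 27 to 29 members were called higher and 3 or 4 lower. The replicate block gave 29 higher and 4 lower. The deviations of livers with the same replicate number correlated at −0.0099, −0.0114 and 0.0485, so the numbers name livers and do not pair them, and 2 of the 3 livers in WT correlated best with another number. Itgb3bp changed sign with equal totals, to 0.19, and Lamb3 after quantile normalization, to −0.53. Lama5, Lamb2, Itga3, Itga6, Itgav and Itgb2 kept their call in all 19 alternatives and Lama3 in 18, being untested at 20 or more in every liver. Chains under 20 counts in WT (Itga2, Itgae, Itgb8) have folds that move with the pseudocount, and depth limits the 6 members under the filter. The causes of these differences were not tested.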

Other observations

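The Vps15LKO livers did not share 1 order among the members called higher. The highest value was in replicate 1 for 7 members, in replicate 2 for 9 and in replicate 3 for 13. Replicate 3 held the highest value for Lama5, Lamb2, Itga3, Itga2, Itgb4 and Itgb8, and also the highest sum of cholangiocyte and progenitor markers. The order replicate 3 over 1 over 2, that of the cholangiocyte sums, was found for 9 of the 29 members called higher (31.0%) and for 1857 of the 5163 genes called higher in all (36.0%). The order was chosen after the values were seen, and the share among the members was not above that among all genes called higher.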
